A study of Mus musculus with 9 samples.

Results

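The TNF superfamily genes of the mouse lung were described here as every gene of the count table whose symbol is Tnfsf (a ligand) or Tnfrsf (a receptor) followed by a digit, which gave 31 genes of 21930, 11 ligands and 20 receptors. Of these, 30 had 10 or more counts in at least 3 libraries and all 30 were tested, 10 ligands and 20 receptors. The remaining one, Tnfsf4, the ligand of the T cell receptor OX40, had 0 to 13 counts per library and was not tested. The 9 libraries came from lung tissue of C57BL/6 mice, labelled male and 6 to 8 weeks old, 3 libraries in each of 3 groups titled control, LPS and RSBD. All mice were anaesthetised with tribromoethanol and had saline (control) or 2 mg/kg of lipopolysaccharide (LPS), the endotoxin of Gram-negative bacteria and an agonist of the receptor TLR4, placed in the trachea. From 24 h on, mice were given a Chinese herbal medicine, the Renshen Baidu Powder (RSBD) decoction, or vehicle by gavage each day for 5 days, and lungs were taken on day 5. The labels describe these treatments for the series as a whole, so control is read here as saline and vehicle, LPS as LPS and vehicle, and RSBD as LPS and the formula. They do not say whether each library is 1 animal, and p-values measure the spread between these libraries.

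Ligands of this family are mostly trimeric proteins of the cell surface, some of them shed, which cluster their receptors. Receptors with a death domain (Tnfrsf1a, Tnfrsf10b, Tnfrsf21, Tnfrsf25) can recruit death or NF-kB adaptors, and most of the others bind TRAF adaptors that activate NF-kB. Several pairs give second signals to T cells, another group keeps B cells and plasma cells alive, and others act between immune cells and epithelium, endothelium or fibroblasts. The family's founder, Tnf, is best known in the lung for the first hours after LPS.

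Total counts per library ranged from 26959662 to 36113905. The labelled tissue was borne out by its markers: Sftpc, the surfactant protein of alveolar type 2 cells, measured 6639 to 11407 CPM (counts per 1000000 counts of the library, after TMM scaling) in the 9 libraries, and Scgb1a1, of club cells, 17712 to 37217. The content of other tissues differed between libraries. Summed CPM of 5 markers of other tissues (Myh6, Tnni3, Adipoq, Ckm and Rag1) ran from 29.0 to 176 in control and 24.7 to 40.4 in LPS. In RSBD libraries the sum ran from 58.5 to 270, without overlap with LPS, and its part in the results was not tested. The 3 control libraries had 6, 7 and 9 counts over all genes of chromosome Y and the other 6 had 7511 to 10918, although every mouse is labelled male. Any difference from control is therefore also a difference between libraries that lack and libraries that hold Y transcripts, and the 2 cannot be told apart here. Since bulk tissue was sequenced, fewer cells of a type and less RNA per cell cannot be told apart either.

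Per transcript length, Tnfrsf1a, the widely expressed first receptor of TNF, was the most abundant member, with a mean over the 9 libraries of 154 TPM (as deposited, a unit corrected for length and depth; range 134 to 192). Tnfsf10, the death ligand TRAIL, followed with 99.3 TPM (88.6 to 122), and no library of one overlapped the other. The next places were not separated, since Tnfrsf12a (61.6 TPM, 23.8 to 160), Tnfrsf1b (44.3, 34.1 to 64.0) and Tnfsf12 (34.1, 27.8 to 41.8) overlapped across libraries, and Tnfrsf12a also reached the range of the first 2. Members known from lymphocytes were spread over the order, with Tnfrsf13b at 24.3 TPM, Tnfsf13b at 13.3, Tnfrsf18 at 12.1, Tnfrsf4 at 5.66, Tnfrsf9 at 2.77 and Tnfrsf8 at 1.48. Tnfsf18, the ligand of Tnfrsf18, was the lowest of the 30 at 0.248 TPM, with 0 to 19 counts per library. The plot of levels shows Tnfsf9 and Tnfrsf12a with control means well above those of the other groups.

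**Figure D1:**
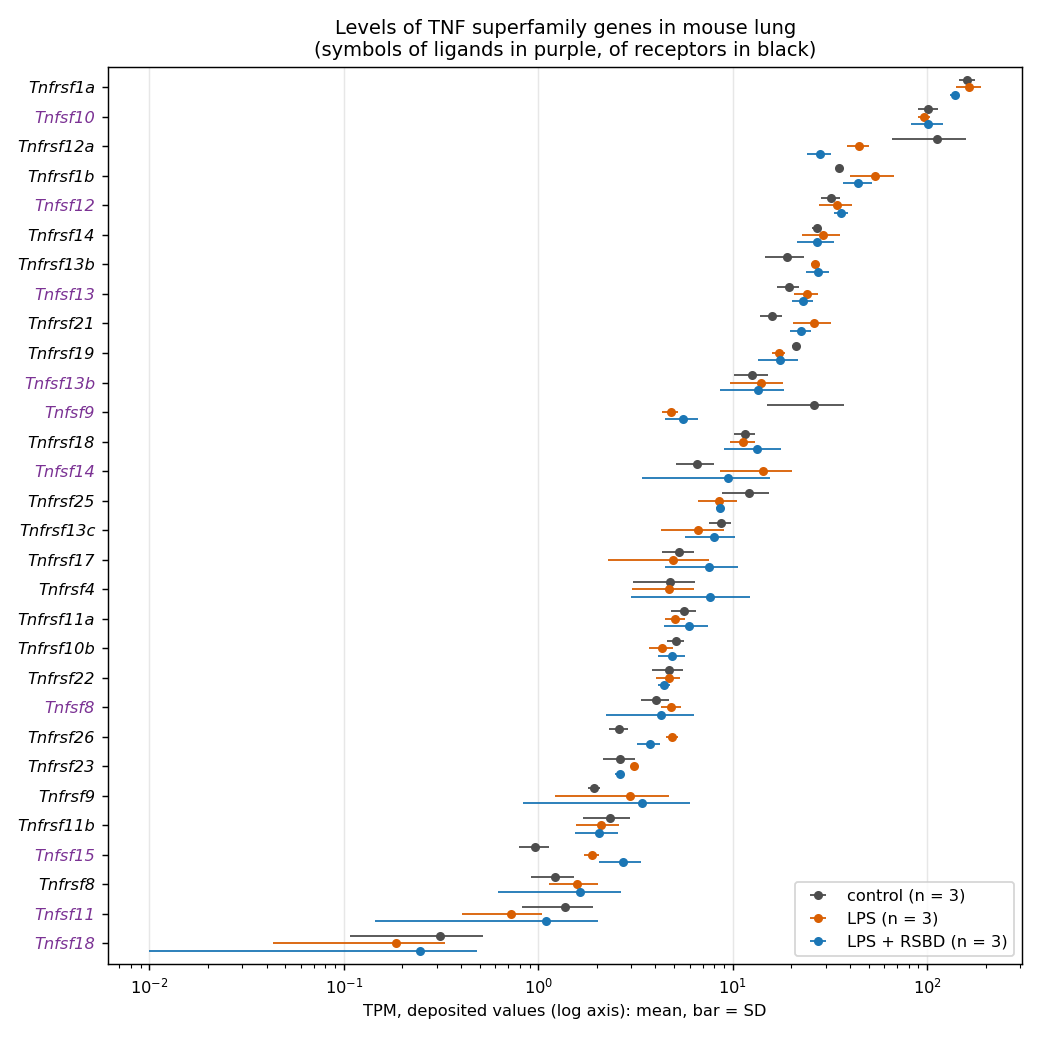
Levels of the 30 TNF superfamily members with 10 or more counts in at least 3 libraries, in deposited TPM on a log axis. Points are group means and bars are SD (n = 3 libraries per group); Tnfrsf1a (mean 154 TPM) and Tnfsf10 (99.3 TPM) lead, and the control means of Tnfsf9 and Tnfrsf12a lie to the right of the other groups.

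Comparing LPS with control asks which lung transcripts differ on day 5 after LPS. Of the 30 members, 5 rose and 2 fell in LPS libraries (edgeR's quasi-likelihood test, Benjamini-Hochberg adjusted p under 0.05 over all 15636 genes tested). Those that rose were the ligand Tnfsf15 and the receptors Tnfrsf1b, Tnfrsf13b, Tnfrsf21 and Tnfrsf26; those that fell were the ligand Tnfsf9 and the receptor Tnfrsf12a. The members called made up 23.3% of the 30, against a background of 17.4% of all genes called, 8.79% higher and 8.63% lower. By role, 2 of 10 ligands and 5 of 20 receptors were called. The median log2 fold change was 0.30 for ligands and 0.14 for receptors, against -0.01 for all genes tested. The CPM ranges of both groups were separate for 8 of the 30 members, or 26.7%, against 38.0% of all genes. By limma on log2(TPM + 1) the split was 2 higher and 2 lower, with Tnfsf15, Tnfrsf1b and Tnfrsf13b not called, and the median over all genes was -0.09. The count of 7 members was 4 without control library 2 or 3 and to 3 without LPS library 2; Tnfsf9, Tnfrsf21 and Tnfrsf26 were called in each of these fits. DESeq2 called 8, the same 7 and Tnfsf14.

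The comparison of LPS plus RSBD with control shares its 3 control libraries with the one above, so the values are given side by side and are no second test of it. Here 2 members rose, Tnfsf15 and Tnfrsf21, and 2 fell, Tnfsf9 and Tnfrsf12a. They were 13.3% of the 30, against 3.70% of all genes called, 1.89% higher and 1.80% lower. Groups did not overlap for 7 members, or 23.3%, against 30.4% of all genes. Without control library 2 the count was 2, namely Tnfsf9 and Tnfrsf12a, and DESeq2 called 6, adding Tnfrsf13b and Tnfrsf26 to the 4. The plot of fold changes shows the 2 decreases well to the left in both comparisons with control.

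**Figure D2:**
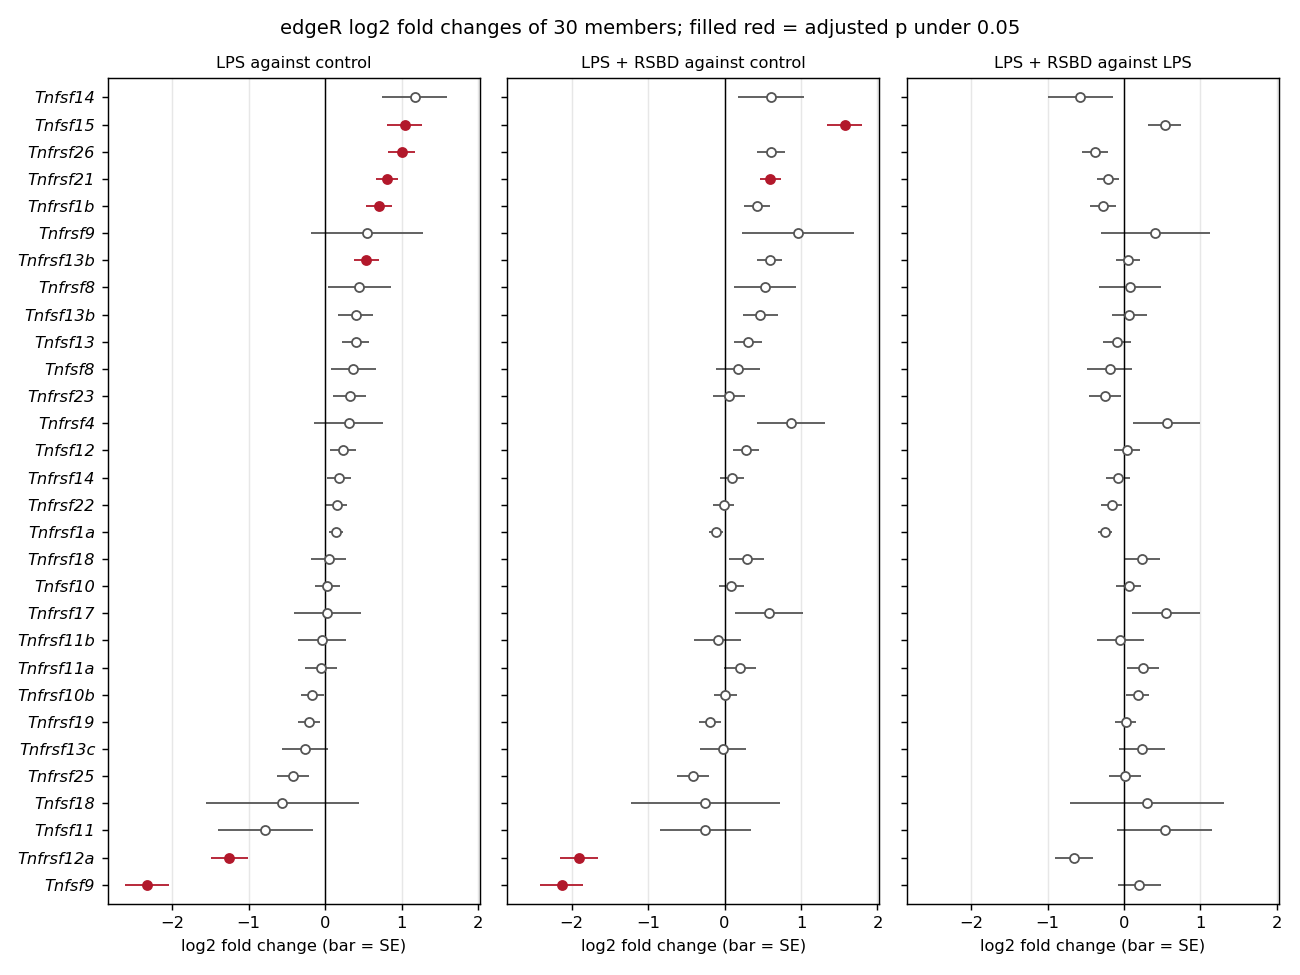
Log2 fold changes with SE from edgeR for the 30 members tested, in the 3 comparisons; filled red points have an adjusted p under 0.05. Tnfsf9 and Tnfrsf12a lie lowest in both comparisons with control, and no point is filled for LPS plus RSBD against LPS.

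Among the ligands, Tnfsf9 changed most. It encodes the ligand of Tnfrsf9 and is made by activated antigen-presenting cells and some other cells (ENSMUSG00000035678, mm10 chromosome 17, 57105325 to 57107757). It measured 11.9, 26.4 and 17.0 CPM in control libraries 1 to 3, then 3.16, 4.18 and 3.60 in LPS and 4.66, 4.61 and 3.31 in LPS plus RSBD libraries. All 3 control libraries lay above the other 6, with control 2 the highest. The mean fell from 18.4 ± 7.34 CPM in control to 3.65 ± 0.513 in LPS (SD, n = 3 each), a log2 change of -2.33 ± 0.29 (SE; adjusted p = 0.00282 by edgeR). In LPS plus RSBD libraries it was 4.19 ± 0.768 CPM, -2.13 ± 0.28 against control (adjusted p = 0.00945) and 0.20 ± 0.28 against LPS (adjusted p = 0.876). Beside it, the summed CPM of 3 mesothelial markers ran from 41.9 to 85.0 in control, 7.34 to 52.0 in LPS and 22.2 to 31.8 in LPS plus RSBD libraries; their part in the result was not tested.

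Its receptor Tnfrsf9, a costimulator of activated T and NK cells, followed another pattern. It measured 1.27, 2.10 and 2.38 CPM in control, 0.632, 4.44 and 3.34 in LPS and 2.00, 7.45 and 1.74 in LPS plus RSBD libraries. The groups overlapped, LPS 1 being the lowest and RSBD 2 the highest of all 9. Its fold change against control was 0.55 ± 0.73 in LPS (edgeR adjusted p = 0.630) and 0.96 ± 0.73 in LPS plus RSBD (adjusted p = 0.469), and the latter was -0.03 without RSBD 2. Tnfrsf9 overlaps Camta1 in the table's coordinates, so reads of that gene may be counted for it.

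Tnfsf15, the cytokine TL1A, known from endothelium and myeloid cells as a costimulator of T and innate lymphoid cells, rose in both LPS groups (ENSMUSG00000050395, chromosome 4, 63724603 to 63745113). It measured 3.80, 2.90 and 2.6 CPM in control, 6.06, 6.92 and 6.14 in LPS and 10.5, 10.3 and 6.76 in LPS plus RSBD libraries. No library of either LPS group overlapped the control range, and the 2 LPS groups overlapped each other. The log2 fold change was 1.04 ± 0.23 for LPS against control (edgeR adjusted p = 0.0157), 1.57 ± 0.23 for LPS plus RSBD against control (adjusted p = 0.0110) and 0.53 ± 0.22 between the LPS groups (adjusted p = 0.504). The first call was lost without control 2, control 3 or LPS 2 (0.0590 to 0.0629) and by limma on log2(TPM + 1) (0.0597), and the second without control 2 (0.0526). Tnfrsf25, its death-domain receptor on T cells, measured 6.90, 8.66 and 10.7 CPM in control, 6.95, 7.61 and 5.09 in LPS and 6.77, 6.97 and 6.00 in LPS plus RSBD libraries. Its groups overlapped, and its fold changes against control of -0.42 ± 0.21 and -0.41 ± 0.21 were not called (adjusted p = 0.191 and 0.279).

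Tnfsf14, the ligand LIGHT of Tnfrsf14 and the lymphotoxin beta receptor, had the largest fold change of the members not called in LPS against control. It measured 8.66, 5.29 and 6.26 CPM in control, 19.9, 15 and 10.6 in LPS and 7.18, 5.68 and 18.0 in LPS plus RSBD libraries. LPS libraries all lay above control, while RSBD 3 was high and RSBD 1 and 2 were within the control range. The log2 fold change was 1.17 ± 0.43 for LPS against control (edgeR adjusted p = 0.0877) and -0.57 ± 0.42 for LPS plus RSBD against LPS (adjusted p = 0.720). The first was called by DESeq2 (adjusted p = 0.0182), in a fit of the 2 groups alone (0.0228) and without RSBD 3 (0.0182), and ran up to 0.213 in the other fits. The summed CPM of 6 neutrophil markers had the order of Tnfsf14 within each group. It was 5896, 5760 and 2176 in LPS libraries 1 to 3, 598, 581 and 3191 in RSBD libraries 1 to 3 and 2115, 713 and 1986 in control. Across groups the order was not kept, since RSBD 1 lay above control 3 for Tnfsf14 and below it for the sum. For LPS against control, 0 of these markers were called by edgeR or DESeq2. The sum of 6 monocyte and macrophage markers was 1003, 882 and 735 in LPS and 552, 712 and 770 in RSBD libraries. It had the same order within LPS and was also highest in RSBD 3, but RSBD 1 and 2 were reversed. The part of both marker lists in the result was not tested. Tnfrsf14, which can send inhibitory or activating signals, lay between 13.5 and 21.2 CPM in all 9 libraries and was not called in any comparison.

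**Figure D3:**
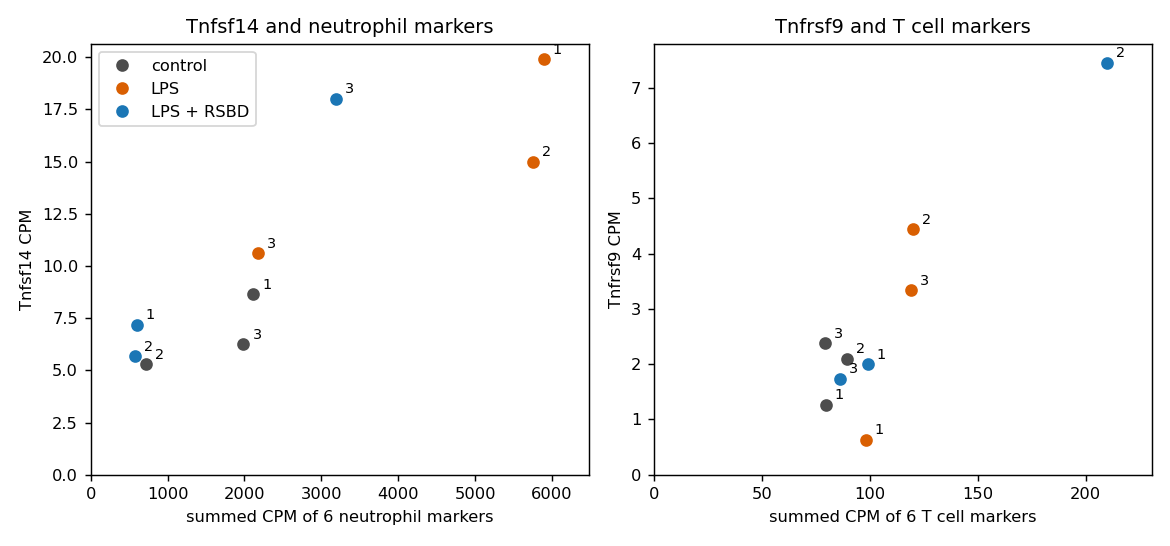
CPM of Tnfsf14 against the summed CPM of 6 neutrophil markers (left), and of Tnfrsf9 against the summed CPM of 6 T cell markers (right), 1 point per library with its replicate number. LPS 1, LPS 2 and RSBD 3 are highest on both axes at left, and RSBD 2 is highest on both axes at right.

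The ligand Tnfsf10 varied little between groups. It measured 324, 258 and 239 CPM in control, 255, 265 and 315 in LPS and 256, 354 and 261 in LPS plus RSBD libraries, so that the groups overlapped throughout. Its fold changes lay between 0.03 and 0.09 with an SE of 0.16. Its death receptor Tnfrsf10b had fold changes of -0.17 to 0.18 with an SE of 0.15 and was not called either. Tnfsf11, the osteoclast and T cell cytokine RANKL, had 13 to 88 counts per library. It measured 1.16, 2.39 and 1.57 CPM in control, 0.483, 1.04 and 1.45 in LPS and 0.877, 2.84 and 0.582 in LPS plus RSBD libraries, with overlapping groups and a fold change of -0.78 ± 0.62 for LPS against control (edgeR adjusted p = 0.402). Its receptor Tnfrsf11a and the secreted decoy Tnfrsf11b (osteoprotegerin) were not called.

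Among the receptors, Tnfrsf12a fell most. It encodes Fn14, a small receptor of epithelium, endothelium and fibroblasts that is known to be induced by injury and growth factors (ENSMUSG00000023905, chromosome 17, 23675445 to 23677468). It measured 36.9, 81.7 and 56.3 CPM in control, 24.5, 22.5 and 26.6 in LPS and 17.2, 16.4 and 13.4 in LPS plus RSBD libraries. The 3 groups did not overlap: control was highest, with library 2 again on top, and LPS plus RSBD lowest. The summed CPM of the 3 mesothelial markers was 41.9, 85.0 and 58.4 in control libraries 1 to 3. It was 52.0, 9.21 and 7.34 in LPS and 31.8, 22.2 and 27.2 in LPS plus RSBD libraries. The sum had the order of Tnfrsf12a within control, but not within LPS or LPS plus RSBD. Most of the control sum was Msln (26.0, 75.3 and 48.2 CPM), while Upk3b (13.8, 8.41 and 7.47) was highest in control 1. Of these markers Msln was called lower in LPS against control (-1.87 ± 0.56, edgeR adjusted p = 0.0483). Upk3b (-0.17 ± 0.98) and Wt1 (-2.22 ± 1.08) were not called, and the part of these markers in the result was not tested. The mean fell from 58.3 ± 22.5 CPM in control to 24.5 ± 2.03 in LPS, with a log2 fold change at -1.25 ± 0.24 (edgeR adjusted p = 0.0127; 0.0536 without LPS 2). In LPS plus RSBD it was 15.7 ± 2.01 CPM, -1.90 ± 0.25 against control (adjusted p = 0.0105). The difference between the LPS groups, -0.65 ± 0.25, did not pass the test over all genes (unadjusted p = 0.0265, adjusted p = 0.481). Its ligand Tnfsf12, the cytokine TWEAK of macrophages and other leukocytes, measured 27.4, 24.7 and 20.8 CPM in control, 23.6, 25.8 and 36.6 in LPS and 31.4, 29.9 and 27 in LPS plus RSBD libraries. It was called in no comparison (fold changes of 0.24 and 0.28 against control, SE 0.17), and its reads may be shared with Tnfsfm13, a gene model that spans both Tnfsf12 and Tnfsf13.

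**Figure D4:**
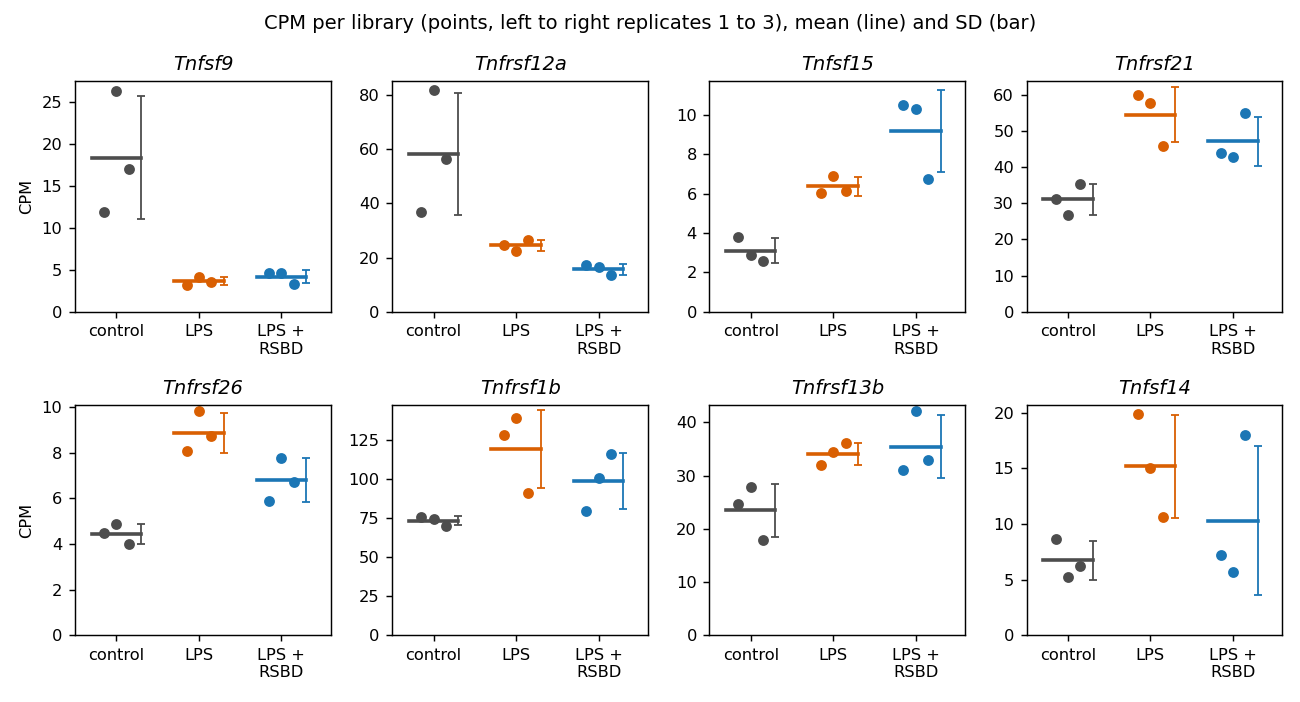
CPM in each library for the 7 members called in LPS against control and for Tnfsf14, with group means (lines) and SD (bars), n = 3 per group, axes from 0. All control points of Tnfsf9 and Tnfrsf12a lie above the other groups, and those of Tnfsf15, Tnfrsf21, Tnfrsf26, Tnfrsf1b and Tnfrsf13b below them.

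Tnfrsf21, the death receptor DR6, rose in both LPS groups (ENSMUSG00000023915, chromosome 17, 43016555 to 43089189). It measured 31.2, 26.9 and 35.3 CPM in control, 60.0, 57.9 and 46.0 in LPS and 43.9, 42.8 and 55.0 in LPS plus RSBD libraries. Every LPS and RSBD library lay above every control library. The log2 fold change was 0.81 ± 0.14 for LPS (edgeR adjusted p = 0.00834) and 0.60 ± 0.14 for LPS plus RSBD against control (adjusted p = 0.0497). The second value was at the threshold, and the call was lost in 13 of the 17 other fits (up to 0.152).

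Tnfrsf26 belongs with Tnfrsf22 and Tnfrsf23 to a cluster of mouse receptors on chromosome 7 of which the last 2 are known as decoys for Tnfsf10. The 3 genes lie within 143607659 to 143685872, with gaps of 6.1 and 16.1 kb, and since they resemble each other, the assignment of reads among them is uncertain. Tnfrsf26 measured 4.47, 4.87 and 3.99 CPM in control, 8.06, 9.80 and 8.72 in LPS and 5.87, 7.78 and 6.72 in LPS plus RSBD libraries, so the 3 groups did not overlap. Its log2 fold change was 1.00 ± 0.18 for LPS against control (edgeR adjusted p = 0.00837), 0.61 ± 0.18 for LPS plus RSBD against control (adjusted p = 0.0827; called by DESeq2, 0.0245) and -0.38 ± 0.17 between the LPS groups (adjusted p = 0.528). Tnfrsf22 and Tnfrsf23 had fold changes of 0.15 ± 0.14 and 0.32 ± 0.21 for LPS against control and were not called (adjusted p = 0.482 and 0.306).

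Of the 2 receptors of TNF itself, Tnfrsf1b, which is mainly found on leukocytes and endothelium, rose in LPS libraries (ENSMUSG00000028599, chromosome 4, 145213463 to 145246870). It measured 76, 74.3 and 70.3 CPM in control, 128, 139 and 91.2 in LPS and 79.6, 101 and 116 in LPS plus RSBD libraries. Control libraries were lowest, and the LPS groups overlapped each other. The log2 fold change was 0.70 ± 0.17 for LPS (edgeR adjusted p = 0.0236) and 0.42 ± 0.17 for LPS plus RSBD against control (adjusted p = 0.167). The LPS call was lost without control 2, control 3, LPS 1 or LPS 2 (0.0533 to 0.0868) and by limma on log2 TPM (0.0619). Tnfrsf1a (chromosome 6, 125349362 to 125362484) measured 173, 187 and 196 CPM in control, 213, 203 and 195 in LPS and 163, 166 and 185 in LPS plus RSBD libraries. LPS plus RSBD libraries all lay below LPS libraries, a fold change of -0.25 ± 0.09 that did not pass over all genes (unadjusted p = 0.0149, edgeR adjusted p = 0.414). The ligands were near the limit of measurement on day 5: Tnf had 10 to 57 counts per library and 0.364 to 1.86 CPM, and Lta 4 to 24 counts, and neither was called.

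Tnfrsf13b, the receptor TACI of B cells, plasma cells and macrophages, had the smallest fold change of the 7 called (ENSMUSG00000010142, chromosome 11, 61126755 to 61149372). It measured 24.6, 27.8 and 18.0 CPM in control, 32.0, 34.4 and 36.1 in LPS and 31.0, 42.1 and 33.0 in LPS plus RSBD libraries, with all control libraries below the others. The log2 fold change was 0.54 ± 0.16 for LPS (edgeR adjusted p = 0.0481) and 0.59 ± 0.16 for LPS plus RSBD (adjusted p = 0.0744; called by DESeq2, 0.0165), and the first call was lost in 10 of 17 other fits (up to 0.132). Its ligand Tnfsf13b, the B cell survival factor BAFF, measured 19.8, 21.1 and 16.5 CPM in control, 29.8, 19.8 and 26.5 in LPS and 25.4, 35.3 and 18.9 in LPS plus RSBD libraries. The groups overlapped, and its fold changes of 0.40 ± 0.23 and 0.47 ± 0.23 against control were not called (adjusted p = 0.237 and 0.252). Tnfsf13, the related ligand APRIL, measured 16.2, 17.3 and 13.7 CPM in control, 15.5, 23.6 and 23.0 in LPS and 16.9, 19.2 and 22.3 in LPS plus RSBD libraries, also overlapping (0.40 ± 0.18 for LPS, adjusted p = 0.147). Of the other receptors of these ligands, Tnfrsf13c, the BAFF receptor of mature B cells, and Tnfrsf17, the plasma cell receptor BCMA, had fold changes of -0.26 ± 0.30 and 0.03 ± 0.44 for LPS against control and were not called. Summed CPM of 6 B cell markers ran from 151 to 281 in control, 216 to 249 in LPS and 269 to 332 in LPS plus RSBD libraries. For LPS against control, 0 of these markers were called by edgeR or DESeq2 (0 at an unadjusted p under 0.05). For LPS plus RSBD against control, edgeR called 0 and DESeq2 2 (1757 of all genes by DESeq2), and 4 had an unadjusted edgeR p under 0.05. Sums of 5 plasma cell markers were 1886 to 2744 CPM in control, 1217 to 3540 in LPS and 2582 to 3611 in LPS plus RSBD libraries. By edgeR 0 of these were called in any comparison, and by DESeq2 1, in LPS against control. The part of B cells and plasma cells in the values of Tnfrsf13b was not tested.

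Markers of some other cells were also called higher in LPS against control, where 8.79% of all genes were. All 6 markers of monocytes and macrophages were called higher in LPS against control, with summed CPM of 421 to 461 in control, 735 to 1003 in LPS and 552 to 770 in LPS plus RSBD libraries. Of 5 NK cell markers 4 were called higher (14.8 to 21.5, 38.6 to 57.1 and 52.1 to 81.1 summed CPM). Of 5 endothelial markers 2 were called higher, and Cldn5 (0.31 ± 0.13), Vwf (0.05 ± 0.30) and Tie1 (-0.15 ± 0.10) were not called. Endothelial sums were 2455 to 2698, 2705 to 3583 and 2459 to 2779 CPM, so LPS plus RSBD overlapped control. Of 5 dendritic cell markers 2 were called higher and 1, Clec9a, lower (113 to 115, 104 to 108 and 98.2 to 118 summed CPM). In the same comparison, 1 of 6 airway markers, Foxj1, was called lower (-0.96 ± 0.28, edgeR adjusted p = 0.0453). So was 1 of 4 alveolar type 1 markers, Aqp5 (-0.59 ± 0.17, adjusted p = 0.0385), where 8.63% of all genes were. Of 4 alveolar type 2 markers 0 were called. The part of all these markers in the changes of the members was not tested.

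For the members called in both comparisons with control, the bases just before the RefSeq start site are shown from RefSeq's table (GRCm38.p6), leaving out bases inside the deposited gene model. The sequences run 5′ to 3′ on the gene's strand, and capitals mark each GC box (GGGCGG on either strand), the one searched motif found in them. The first lies at chr17:23677469-23677699 on the minus strand, the second at chr4:63745114-63745309 on the minus strand and the third at chr17:43016305-43016554 on the plus strand; Tnfsf9 had no entry.
Tnfrsf12a: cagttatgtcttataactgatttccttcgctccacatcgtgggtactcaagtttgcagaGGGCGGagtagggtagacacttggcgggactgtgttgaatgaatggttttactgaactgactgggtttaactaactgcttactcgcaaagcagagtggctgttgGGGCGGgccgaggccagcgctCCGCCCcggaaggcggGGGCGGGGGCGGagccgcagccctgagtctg
Tnfsf15: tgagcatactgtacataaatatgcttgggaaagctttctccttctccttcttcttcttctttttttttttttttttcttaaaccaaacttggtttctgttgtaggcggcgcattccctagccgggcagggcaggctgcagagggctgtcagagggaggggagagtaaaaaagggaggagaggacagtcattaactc
Tnfrsf21: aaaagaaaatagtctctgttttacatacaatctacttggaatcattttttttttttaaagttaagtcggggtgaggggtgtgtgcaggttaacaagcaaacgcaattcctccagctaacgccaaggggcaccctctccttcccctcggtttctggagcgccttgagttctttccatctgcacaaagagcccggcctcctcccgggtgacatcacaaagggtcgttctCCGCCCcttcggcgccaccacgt

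The 250 bases before the start site were searched on both strands for the GC box, the TATA box TATAAA, the AP-1 site TGANTCA, the E-box CACGTG, the cAMP response element TGACGTCA, the kappaB motif and the CArG box, which do not include one another. Of the 31 members, 24 had an entry, some with several start sites, giving 28 windows. The GC box was in 11 of the 28 windows and in 32.7% of 32851 mouse windows of the same length, with 5 places in that of Tnfrsf12a, 1 in that of Tnfrsf21 and none in that of Tnfsf15. The kappaB motif was in 2 windows, those of Tnfrsf8 and Tnfrsf9 (3.90% of all), and AP-1 sites in 5, those of Tnfrsf8, Tnfrsf9, Tnfsf13, Tnfsf13b and Tnfsf14 (6.75% of all). Of the 7 members called in LPS against control, Tnfsf9 and Tnfrsf26 had no entry and the others held neither motif. At these shares so few windows would mostly hold none, so this does not set called members apart. A match is a match of letters and not evidence of binding.

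The comparison of LPS plus RSBD with LPS asks whether the formula moved these transcripts. By edgeR's quasi-likelihood test 0 of the 30 members were called, as were 0 of all 15636 genes (0%). DESeq2 also called 0 members, and 159 genes. At an unadjusted p under 0.05 there were 3 members, Tnfrsf12a, Tnfrsf1a and Tnfsf15, or 10%, against 9.42% of all genes. Groups did not overlap for 4 members, Tnfrsf1a, Tnfrsf12a, Tnfrsf22 and Tnfrsf26, all lower with RSBD. That is 13.3% of members, against 12.6% of all genes. Fold changes of the 30 members ran from -0.65 for Tnfrsf12a to 0.56 for Tnfrsf4, with a median of 0.06 for ligands and 0.01 for receptors (0.01 for all genes). A difference that missed the threshold does not show that the groups were alike, and the median SE per gene was 0.15.

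Several receptors of activated T cells were high in 1 LPS plus RSBD library. Tnfrsf4 (OX40) measured 1.72, 2.32 and 2.74 CPM in control, 1.67, 4.02 and 2.73 in LPS and 2.28, 6.87 and 3.31 in LPS plus RSBD libraries. Its fold change of 0.87 ± 0.44 for LPS plus RSBD against control was not called (edgeR adjusted p = 0.273) and fell to 0.30 without RSBD 2. Within its group, RSBD 2 was the highest library for 15 of the 30 members, among them Tnfrsf4, Tnfrsf8, Tnfrsf9, Tnfrsf17, Tnfrsf18, Tnfsf8 and Tnfsf11, against 32.8% of all genes tested. That count was not peculiar to it, since control 2 was highest in its group for 15 members and LPS 2 for 13. Tnfrsf18 (GITR, a receptor of regulatory T cells) measured 12.2 CPM there and 6.21 to 8.41 in the other 8 libraries. The summed CPM of 6 T cell markers was 99.0, 210 and 86.1 in RSBD libraries 1 to 3. It ran from 79.2 to 89.5 in control and from 98.2 to 120 in LPS libraries, without overlap. For LPS against control, edgeR called 0 of these markers and DESeq2 3, where DESeq2 called 3840 of all genes. The sum of 3 regulatory T cell markers was 37.8 in RSBD 2 and 20.2 to 30.5 in the other 8. Their part in these values was not tested.

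**Figure D5:**
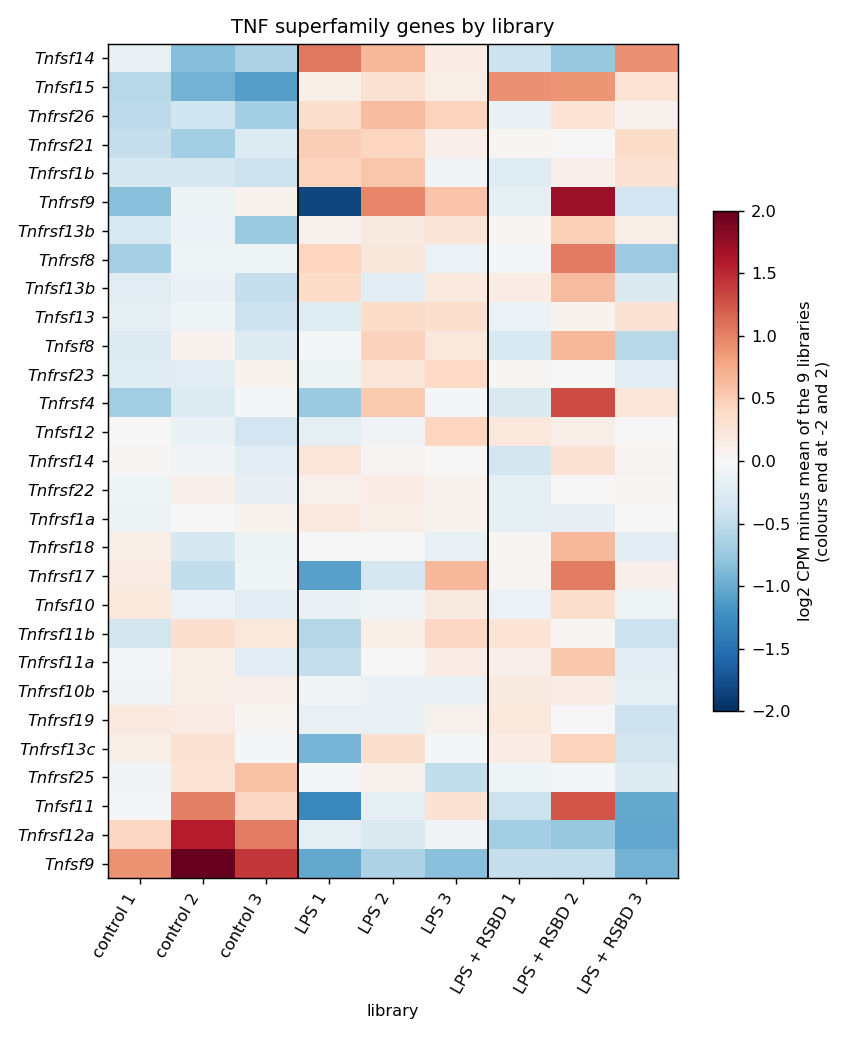
Log2 CPM of 29 members (Tnfsf18, with a 0 count, left out) minus each gene's mean over the 9 libraries, ordered by fold change of LPS against control; colours end at -2 and 2. Tnfsf9 and Tnfrsf12a are high in the 3 control columns, and Tnfrsf4, Tnfrsf8 and Tnfrsf9 are highest in the column of LPS plus RSBD 2.

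Family members with other symbols were taken as 2 further lists. Of 7 such ligands (Tnf, Lta, Ltb, Fasl, Cd40lg, Cd70 and Eda) 6 were tested and 0 called in any comparison by edgeR or DESeq2, with 0 at an unadjusted p under 0.05. Of 8 receptors (Fas, Cd40, Cd27, Ltbr, Ngfr, Edar, Eda2r and Relt) 1 was called in LPS against control, where 17.4% of all genes were. This was Edar, the ectodysplasin receptor of skin appendages and epithelium. It fell from 2.6 ± 0.818 CPM in control to 1.20 ± 0.211 in LPS libraries, with a log2 fold change at -1.12 ± 0.32 (edgeR adjusted p = 0.0383). In LPS plus RSBD libraries Edar measured 2.05 ± 0.268 CPM. That was 0.78 ± 0.32 against LPS (edgeR unadjusted p = 0.0334, adjusted p = 0.498), without overlap, and -0.34 ± 0.31 against control (adjusted p = 0.542), neither called.

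Downstream of the receptors, 5 of 33 adaptors, kinases and death effectors rose and 3 fell in LPS against control, where 8.79% of all genes were called higher and 8.63% lower. Among those that rose were Casp8, the initiator caspase of death receptors (0.37 ± 0.10, edgeR adjusted p = 0.0293), Bid, which links it to mitochondria (0.66 ± 0.16, 0.0265), Ripk3, the kinase of necroptosis (0.50 ± 0.12, 0.0263), and Otulin, a deubiquitinase of linear chains (0.39 ± 0.11, 0.0384). The 3 that fell were Traf4 (-0.61 ± 0.15, adjusted p = 0.0241), Map3k14, the NF-kB inducing kinase of the noncanonical pathway (-0.49 ± 0.12, 0.0258), and Chuk, an IkB kinase subunit (-0.27 ± 0.08, 0.0384). Between the LPS groups, 0 of the 33 were called by edgeR or DESeq2 (0 at an unadjusted p under 0.05). Of 16 NF-kB subunits and targets, among them Nfkbia, Tnfaip3, Icam1 and Vcam1, 0 were called in any comparison by edgeR or DESeq2, and 0 had an unadjusted p under 0.05.

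By position, 9 of the 31 members lie on chromosome 4 and 4 on chromosome 17, and several are close neighbours, some of which did not share a call. Tnfsf9 and Tnfsf14 lie 81.7 kb apart on chromosome 17, with fold changes for LPS against control of -2.33 ± 0.29 and 1.17 ± 0.43, the latter not called. Tnfsf13 and Tnfsf12, 0.5 kb apart on chromosome 11, were both not called (0.40 ± 0.18 and 0.24 ± 0.17). Tnfsf15 and Tnfsf8, the ligand of Tnfrsf8, lie 86.2 kb apart on chromosome 4 (1.04 ± 0.23 and 0.37 ± 0.29, the latter not called). Tnfrsf1b and Tnfrsf8 lie 20.3 kb apart there (0.70 ± 0.17 and 0.45 ± 0.41, the latter not called). Tnfrsf4 and Tnfrsf18, 9.6 kb apart, were both not called, and both were highest in RSBD 2 within their group. The remaining member with a high level, Tnfrsf19, an orphan receptor of epithelium and stroma, lay between 31.3 and 48.1 CPM and was not called in any comparison.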

How the data were processed

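Lung mRNA was sequenced as 9 strand-specific paired-end libraries of 150 bases, per the labels' protocols. The submitters' processing notes name DESeq2 1.38.3, StringTie 2.2.0, HISAT2 2.2.1 and fastp 0.23.2 beside GRCm38 (mm10), with no role or order. Which tool counted reads, whether by strand and on which annotation is not given in the sources used here. As deposited by the authors, one table holds expected counts (estimated counts per gene, whole numbers in every cell, so none was rounded here) and another TPM values. Among the counts, 2 (2989 values) was more frequent than 1 (1349), so a count need not be 1 fragment. The TPM served for levels between genes and for alternatives. Columns named RS were taken as the libraries titled RSBD. Both tables hold 21930 protein-coding genes. All 31 members had the same symbol in GENCODE M21, and 30, all but Tnfsf15, the same coordinates.

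Counts were fitted in R 4.3.3 with edgeR 4.0.16 across all genes (filterByExpr with minimum count 10 and minimum total 15, TMM, robust quasi-likelihood, group as the factor, all 9 libraries, 6 residual degrees of freedom), with Benjamini-Hochberg adjusted p over 15636 genes and a threshold of 0.05. An SE is the log2 fold change divided by the root of F. The fit was also run on simulated counts as a check of the code, which is no evidence for the calls made here. Alternatives used DESeq2 1.42.0, limma 3.58.1 on log2(TPM + 1) and log2(TPM + 0.1) (0.5 TPM in at least 3 libraries), RLE scaling, 2 other filters, the 2 groups alone, a replicate block and each library left out. Members and lists were chosen with earlier results of these data known. Values in every library were given for members called in any comparison, the 2 uncalled with the largest fold change in each, partners of called members, both TNF receptors, Tnfsf10 and Tnfsf13b. Trac, of the T cell markers, was not in the table. One gene of the signalling list is not reported here.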

Additional observations from a re-analysis of the deposited data

How the results depend on the processing

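Over the alternatives, Tnfsf9, Tnfrsf21 and Tnfrsf26 kept their calls for LPS against control in all 17 other fits, as did Tnfsf9 and Tnfrsf12a for LPS plus RSBD against control. On log2(TPM + 1) and log2(TPM + 0.1), limma called 4 members for LPS against control, 2 higher and 2 lower, in place of 7, and 2035 genes (701 higher, 1334 lower) and 2013 (703 and 1310) in place of 2723 (1374 and 1349). For LPS plus RSBD against control it called 313 genes (98 higher, 215 lower) and 307 (100 and 207), and DESeq2 1757, in place of 578 (296 and 282). RLE scaling, the fit of the 2 groups alone and limma on TPM each called 3 members there (1 higher, 2 lower) and DESeq2 6 (4 higher, 2 lower) in place of 4. Between the LPS groups, DESeq2 called 159 genes, and the fit of the 2 groups alone and both limma fits 1 each, in place of 0. The cause of these differences was not tested.

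With 1 library left out, genes called ranged from 786 to 2870 for LPS against control, 0 to 4 between the LPS groups and 94 to 961 for LPS plus RSBD against control, and members called from 3 to 7, 0 to 0 and 2 to 4. The fold change of Tnfrsf9 for LPS plus RSBD against control ranged from -0.03 to 1.30. Replicate numbers did not pair the libraries: deviations of same-numbered libraries correlated at -0.215 to 0.122, and 2, 0 and 3 of 6 libraries correlated best with their own number. With the replicate block, 1828, 0 and 240 genes and 7, 0 and 3 members were called for LPS against control, LPS plus RSBD against LPS and LPS plus RSBD against control. Members with few counts, such as Tnfsf18 (SE 1.00 for LPS against control), are limited by depth.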
